A study of Sus scrofa with 6 samples.

Results

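The miRNAs described here are 5 of the 358 known miRNAs in a small RNA table of 1645 entries from pig immature Sertoli cells: miR-15a, miR-15b, miR-16, miR-195 and miR-497, each chosen by its name alone. Every one of the 5 is listed as a single entry without an arm suffix, and all 5 passed the filter on low values. Sertoli cells are the somatic cells that support germ cells in the seminiferous tubule. They were taken from fetal pigs (80 to 90 days of gestation) and cultured for 6 h in medium with 10% fetal bovine serum before the treatment began. The AA2P group (3 libraries) then received 250 µM AA2P, the sesquimagnesium salt hydrate of L-ascorbic acid 2-phosphate and a stable form of vitamin C, and the control group (3 libraries) was left untreated. The labels give neither the duration of the treatment nor the cultures or animals behind each library, so p-values measure only the spread between these libraries, which may be technical.

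The miR-15 family is a group of miRNAs that share a seed, the short stretch near the 5′ end with which a miRNA pairs to its targets. In human and mouse cells its members repress G1/S regulators such as CCND1, CCNE1 and CDK6, the cell cycle kinase WEE1 and the anti-apoptotic BCL2. A gain of these miRNAs slows the cell cycle. They are transcribed as pairs from 3 kinds of loci: miR-15a with one copy of miR-16, miR-15b with the other copy of miR-16, and miR-195 with miR-497. In human B cells the miR-15a locus is known for its deletion in chronic lymphocytic leukaemia. In the RefSeq annotation of the pig assembly Sscrofa11.1, MIR15A and MIR16-2 are direct neighbours, MIR15B and MIR16-1 are direct neighbours inside the span of SMC4, a condensin subunit gene used in mitosis, and MIR195 and MIR497 are direct neighbours inside the span of a long non-coding RNA gene. Since the table has 1 entry for miR-16, the products of its copies were not separated.

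Levels are in TPM, reads scaled by the authors so that each library has the same total over known and predicted entries. The smallest step between low values put the depth at 26.9, 36.0 and 32.5 Mreads (M for mega) in AA2P replicates 1 to 3 and at 25.8, 32.3 and 30.3 Mreads in control replicates 1 to 3. At these depths the lowest member, miR-497, rested on 318 to 336 reads in the AA2P libraries and on 284 to 355 reads in the control libraries. No miRNA specific to Sertoli cells was available to check the cell type. Of 4 miRNAs of gonadal somatic cells, miR-140-3p stood at 1178 ± 69.9 TPM in AA2P and 1106 ± 61.5 TPM in control libraries (SD, n = 3 each), while miR-202-5p reached at most 1.01 TPM and miR-202-3p was listed at 0 in 5 of the 6 libraries. The remaining entry, miR-140-5p, differed more between the groups, at 114 ± 12.8 TPM in AA2P and 85.2 ± 8.81 TPM in control libraries. In bulk RNA such as this, a change in the share of cells that carry a miRNA and a change per cell cannot be told apart.

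The 5 members lay between 8.81 and 959 TPM and kept one order of levels in both groups. miR-16 was the most abundant member, at 814 ± 125 TPM in AA2P and 634 ± 60.6 TPM in control libraries. It was followed by miR-15b at 246 ± 22.4 TPM in AA2P and 198 ± 22.9 TPM in control libraries, and by miR-15a at 35.6 ± 7.18 TPM in AA2P and 28.3 ± 4.08 TPM in control libraries. miR-195 stood at 23.5 ± 4.32 TPM in AA2P and 18.8 ± 1.85 TPM in control libraries, and miR-497 at 10.5 ± 1.80 TPM in AA2P and 11.2 ± 2.47 TPM in control libraries. Within each group, the ranges of neighbours in this order did not overlap, so the order held in all 6 libraries. The step between neighbours was widest from miR-15b to miR-15a, 6.91-fold in AA2P and 6.97-fold in control libraries, and narrowest from miR-15a to miR-195, 1.51-fold in both groups.

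**Figure D1:**
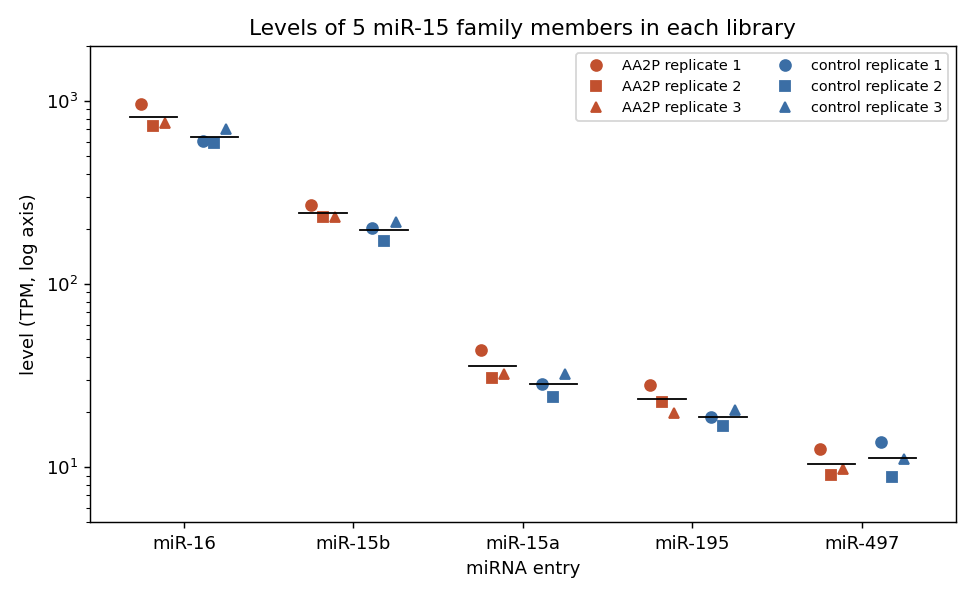
Levels of the 5 miRNAs in TPM (log axis) in each AA2P library (left of each pair) and control library (right), with replicates 1, 2 and 3 as circle, square and triangle and the group mean as a line. miR-16 lies between 593 and 959 TPM and miR-497 between 8.81 and 13.7 TPM, and the order of the 5 is the same in every library.

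None of the members was prominent in these cells. By level, miR-16 ranked 66 to 72 among the 358 known miRNAs in the AA2P libraries and 66 to 70 in the control libraries, and miR-497 ranked 207 to 215 in the AA2P libraries and 199 to 203 in the control libraries. Together the 5 took 0.113% ± 0.0161 of the TPM in AA2P and 0.0890% ± 0.00869 in control libraries (SD, n = 3 each). miR-16 made up 72.0% ± 0.825 of the summed TPM of the 5 in AA2P and 71.3% ± 1.51 in control libraries, and miR-15b 21.8% ± 1.05 in AA2P and 22.2% ± 1.05 in control libraries. The miR-15a share was 3.13% ± 0.178 in AA2P and 3.17% ± 0.178 in control libraries. The miR-195 share was 2.08% ± 0.177 in AA2P and 2.11% ± 0.0573 in control libraries, and that of miR-497 was 0.924% ± 0.0328 in AA2P and 1.26% ± 0.277 in control libraries. The composition of the family thus differed by less than 1 SD between the groups for each member but miR-497.

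The comparison of AA2P with control libraries asked whether vitamin C changed these miRNAs. None of the 5 passed the test, limma on log2(TPM + 1) with Benjamini-Hochberg adjustment over the 433 entries that reached 1 TPM in 3 or more libraries and a call at an adjusted p under 0.05. Over all 433 entries 107 were called (24.7%), 86 higher (19.9%) and 21 lower (4.85%) with AA2P. Of the 5 members, 2 had an unadjusted p under 0.05, both higher, as did 32.1% of all entries tested. When limma was fitted to the known miRNAs alone, these same members, miR-16 and miR-15b, were called as higher (adjusted p = 0.0247 and 0.0468), as were 94 of the 264 entries of that fit (35.6%).

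miR-16, the main product of the family, stood at 959, 730.4 and 754 TPM in AA2P replicates 1 to 3, against 605, 593 and 704 TPM in control replicates 1 to 3. Every AA2P library lay above every control library, with a narrow gap between the second AA2P library and the third control library. The log2 fold change on the log2(TPM + 1) scale was 0.35 (SE 0.131, 95% interval 0.03 to 0.67, limma adjusted p = 0.0984), a ratio of mean TPM of 1.28.

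miR-15b, which shares its locus with one copy of miR-16, stood at 272, 232 and 234 TPM in the AA2P libraries, against 202, 173 and 218 TPM in the control libraries. The groups did not overlap here either. Its log2 fold change was 0.32 (SE 0.117, 95% interval 0.03 to 0.60, limma adjusted p = 0.0984). Of the 5 members 2 were thus higher in every AA2P library than in any control library, where 40.4% of all tested entries were. Without AA2P replicate 3 the count was 3 members, beside 48.3% of all tested entries, and without control replicate 3 it was 4 members, beside 43.2%.

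miR-15a, the partner of the other copy of miR-16, stood at 43.8, 30.6 and 32.3 TPM in AA2P libraries, against 28.4, 24.2 and 32.4 TPM in control libraries. Only AA2P replicate 1 lay above all control libraries. The log2 fold change was 0.31 with a wider interval of -0.12 to 0.74 (limma adjusted p = 0.234).

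miR-195 stood at 28.2, 22.7 and 19.7 TPM in AA2P libraries, against 18.9, 16.9 and 20.6 TPM in control libraries. AA2P replicates 1 and 2 lay above all control libraries and AA2P replicate 3 did not. Its log2 fold change was 0.30 (95% interval -0.08 to 0.68, limma adjusted p = 0.200).

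miR-497, the cluster partner of miR-195, stood at 12.5, 9.09 and 9.79 TPM in AA2P libraries, against 13.7, 8.81 and 11.1 TPM in control libraries. The highest and the lowest value of the 6 both belonged to control libraries. Its log2 fold change was -0.08 (95% interval -0.56 to 0.39, limma adjusted p = 0.745). The sign turned without AA2P replicate 2 (0.0019) and without control replicate 1 (0.06). The intervals of all 5 members reach from near or below 0 to 0.39 or more, so a missed call does not show that a member was unchanged.

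The shift of a typical entry was close to that of 4 of the members. Over the 433 tested entries the log2 fold change in the deposited TPM had a median of 0.25. miR-21-5p, by far the most abundant entry, took 410890 ± 36994 TPM in AA2P and 520562 ± 8757 TPM in control libraries. Relative to that median, miR-16 stood at 0.11, miR-15b at 0.07, miR-15a at 0.06 and miR-195 at 0.05, and miR-497 at -0.33. In the order of all fold changes these 4 members lay at percentiles 56.1 to 62.6 and miR-497 at percentile 22.6. After trimmed-mean scaling the median of all entries was 0.00033, a shift of -0.25. The fold changes were then 0.07 for miR-16, 0.04 for miR-15b, 0.04 for miR-15a, 0.03 for miR-195 and -0.34 for miR-497, and the adjusted p values were 0.234 to 0.899 (limma). After that scaling, none of the members had groups that did not overlap in the higher direction, where 19.2% of all entries did, and 48 entries were called higher and 51 lower (22.9% of all tested). Under quantile normalization the signs of miR-16 (-0.04) and miR-195 (-0.02) turned. Under all 5 other scalings 0 of the 5 members were called by limma, where 82 to 99 of all 433 entries were. Likewise 0 members had an unadjusted p under 0.05 (limma), where 130 to 146 of all 433 entries did.

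**Figure D2:**
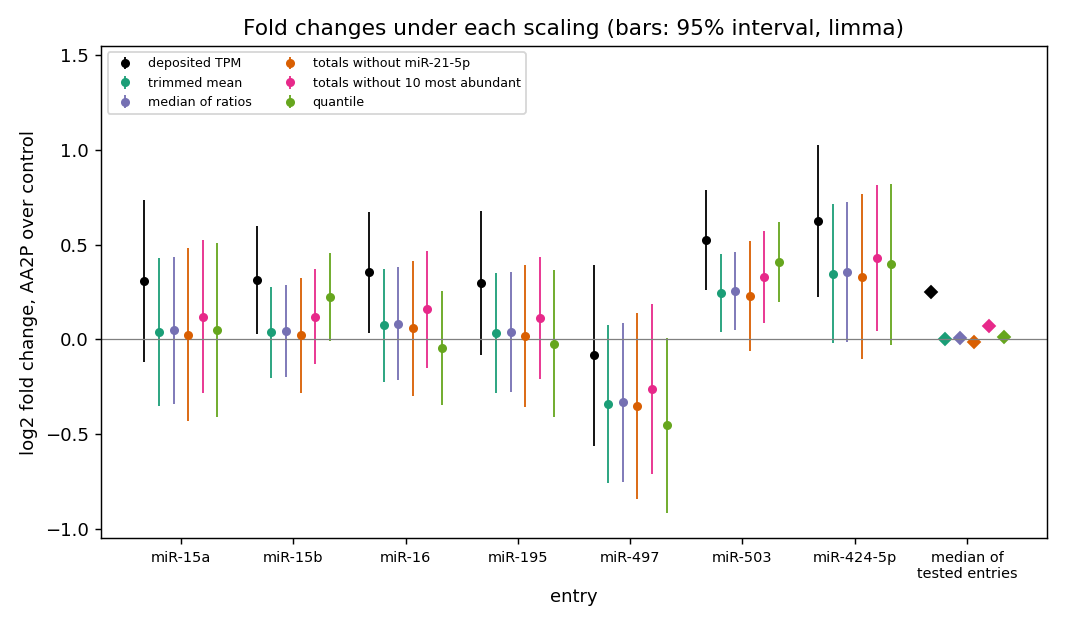
Log2 fold changes, AA2P over control, with 95% intervals from limma, for the 5 members and for miR-503 and miR-424-5p, under the deposited scaling and 5 others (colours). Diamonds on the right are the median of all tested entries. In the deposited TPM the values of miR-15a, miR-15b, miR-16 and miR-195 (0.30 to 0.35) lie near the median of 0.25, and each of the other scalings brings these 4 closer to 0.

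Within a library, 4 of the members kept nearly fixed proportions. The profile of a member was taken as its log2 TPM in each library minus its mean over the 6 libraries. In AA2P replicate 1 the values of miR-15a, miR-15b, miR-16 and miR-195 were 0.31 to 0.48, in AA2P replicate 2 they were -0.04 to 0.12 and in AA2P replicate 3 they were -0.08 to 0.09. In control replicate 1 they were -0.24 to -0.12, in control replicate 2 they were -0.38 to -0.27 and in control replicate 3 they were -0.02 to 0.04. The 4 thus lay within 0.07 to 0.17 log2 units of each other in a library, while each moved over a wider range between libraries of one group. AA2P replicate 1 was the highest library and control replicate 2 the lowest for each of the 4.

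**Figure D3:**
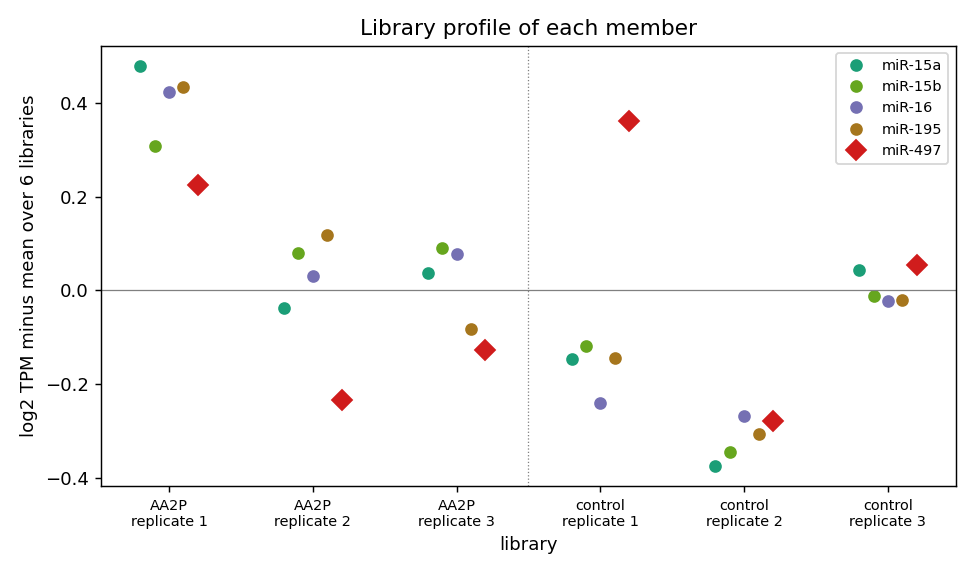
Log2 TPM of each member minus its mean over the 6 libraries, by library, with AA2P libraries on the left. The points of miR-15a, miR-15b, miR-16 and miR-195 lie within 0.17 of each other in every library, while miR-497 (diamonds) lies at 0.36 in control replicate 1 and at -0.23 in AA2P replicate 2.

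The height of AA2P replicate 1 was not common to all entries. Against the mean of the other AA2P libraries it was higher by 0.47 for miR-15a, 0.40 for miR-195, 0.37 for miR-497, 0.37 for miR-16 and 0.22 for miR-15b on the log2(TPM + 1) scale, where the median of all tested entries was 0.08. These values lay at percentiles 71.1 to 88.2 of all tested entries. Without AA2P replicate 1 the log2 fold changes were 0.23 for miR-16, 0.24 for miR-15b, 0.15 for miR-15a, 0.17 for miR-195 and -0.21 for miR-497, and the median of all entries was 0.22.

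Ratios between members were compared within libraries, where scaling between libraries cancels, by two-sided exact permutation tests whose smallest possible p with 3 against 3 libraries is 0.1. There were 7 such ratios, and p-values were adjusted over them. The log2 ratio of miR-15a to miR-16 was -4.52 ± 0.0649 in AA2P and -4.49 ± 0.108 in control libraries, and that of miR-15b to miR-16 was -1.72 ± 0.0862 in AA2P and -1.69 ± 0.0986 in control libraries (SD, n = 3 each; exact permutation p = 0.8 and 0.7). The ratio of the paralogues miR-15a and miR-15b was -2.80 ± 0.151 in AA2P and -2.81 ± 0.0482 in control libraries (exact permutation p = 1.0), and that of miR-195 to miR-16 was -5.12 ± 0.127 in AA2P and -5.08 ± 0.0688 in control libraries (exact permutation p = 0.8). These 4 differences of 0.0024 to 0.04 in size were within 1 SD of either group.

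The ratio of miR-497 to miR-195, products of one cluster, was lower in every AA2P library than in any control library. The log2 ratio was -1.17, -1.32 and -1.01 in AA2P replicates 1 to 3, against -0.46, -0.94 and -0.89 in control replicates 1 to 3. Counting error alone gave each of these values an SE of 0.0945 to 0.106. The means were -1.17 ± 0.155 in AA2P and -0.76 ± 0.263 in control libraries, a difference of -0.41, with an exact permutation p of 0.1, the smallest possible, and an adjusted p of 0.233. In linear terms miR-497 stood at 0.401 to 0.497 of miR-195 in AA2P and at 0.522 to 0.727 of it in control libraries. Among 352 tested entries with a value above 0 in every library, 17.6% had a ratio to miR-195 that was likewise lower in every AA2P library. Control replicate 1 held the highest miR-497 level. Without it the difference was -0.25, and without any other library it was -0.33 to -0.49.

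**Figure D4:**
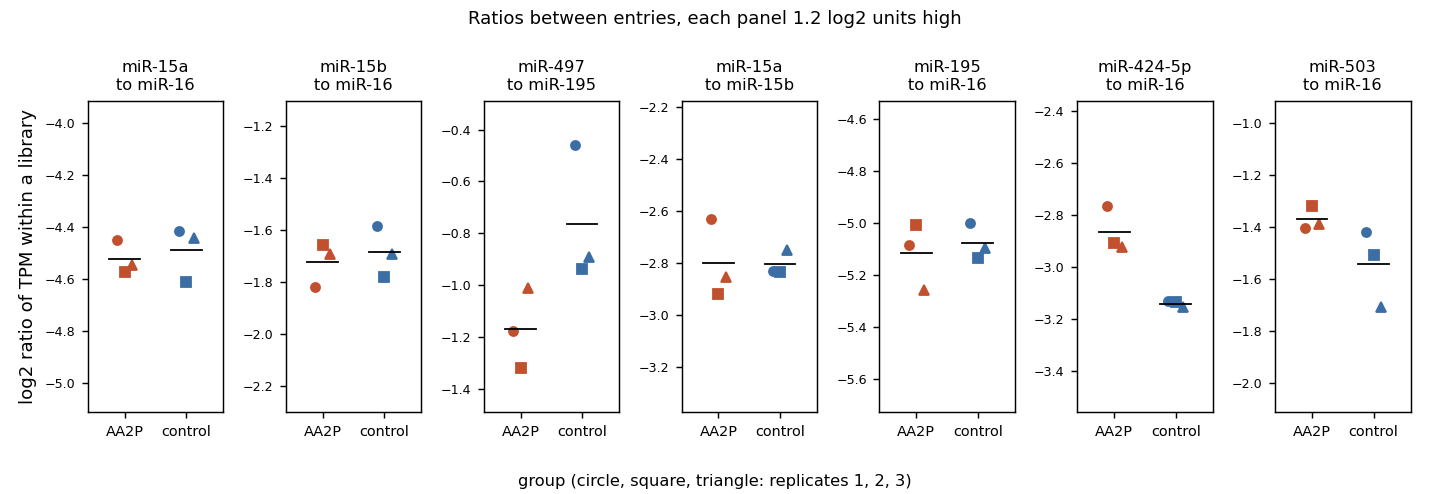
Log2 ratios of TPM between entries in each library, AA2P on the left and control on the right of each panel, with group means as lines and panels of equal height. Only miR-497 to miR-195 is lower in all 3 AA2P libraries than in all control libraries, while miR-424-5p and miR-503 to miR-16 are higher in all 3 AA2P libraries.

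Outside these loci, miR-424-5p and miR-503, which have seeds like that of the members and are transcribed together from another cluster, rose in the deposited TPM. miR-424-5p stood at 141, 97.4 and 99.5 TPM in AA2P libraries, against 69.0, 67.5 and 79.0 TPM in control libraries (log2 fold change 0.62, limma adjusted p = 0.0382), and miR-503 at 362, 293 and 289 TPM in AA2P libraries, against 227, 209 and 216 TPM in control libraries (0.52, limma adjusted p = 0.0176). After trimmed-mean scaling neither passed (limma adjusted p = 0.175 for miR-424-5p and 0.0968 for miR-503). Set against miR-16 within libraries, a comparison added after the values were seen, the log2 ratio of miR-424-5p was -2.86 ± 0.0874 in AA2P and -3.14 ± 0.0125 in control libraries, and that of miR-503 was -1.37 ± 0.0441 in AA2P and -1.54 ± 0.148 in control libraries. For both ratios the AA2P libraries lay above all control libraries, with differences of 0.28 and 0.17 (exact permutation p = 0.1, adjusted p = 0.233), as did the ratio to miR-16 of 14.8% of 352 entries. Without control replicate 3 the difference of miR-503 to miR-16 was 0.09.

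The entries whose library profile lay closest to each member were taken by the smallest root mean square distance of mean-centred log2(TPM + 1) over the 6 libraries, among 263 other known miRNAs. For miR-16 they were miR-18a (distance 0.0670), miR-15a (0.0712) and miR-7-3p (0.0754), and for miR-15a they were let-7i-3p (0.0585), miR-16 (0.0712) and miR-15b (0.0869). For miR-15b they were miR-34a (0.0471), miR-374b-5p (0.0631) and miR-628-5p (0.0725), and for miR-195 they were let-7i-3p (0.0775), miR-18a (0.0819) and miR-27b-5p (0.0822). The members miR-15a, miR-15b, miR-16 and miR-195 held ranks 2 to 8 in each other's order of likeness. The profile of miR-497 was closest to those of miR-339 (0.0955), miR-660 (0.124) and miR-339-5p (0.124), and its cluster partner miR-195 came at rank 94 for it, at a distance of 0.252.

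Among other miRNAs known to repress the G1/S transition, a list of 21 tested entries held the let-7, miR-29 and miR-34 families and also miR-424-5p and miR-503. Of these 21, 7 were called higher with AA2P, miR-424-5p and miR-503 included, and 2 lower, beside 19.9% and 4.85% of all tested entries. The 2 lower were miR-29a-3p and miR-29b (limma adjusted p = 0.0183 and 0.0313). The list had a median log2 fold change of 0.30, against 0.25 over all tested entries. Its most abundant entries were let-7i-5p at 91602 ± 10198 TPM in AA2P and 77168 ± 2686 TPM in control libraries (limma adjusted p = 0.105), let-7f-5p at 44951 ± 5924 TPM in AA2P and 33559 ± 1920.3 TPM in control libraries (limma adjusted p = 0.0382) and let-7g at 31535 ± 4175 TPM in AA2P and 23349 ± 1801 TPM in control libraries (limma adjusted p = 0.0393). After trimmed-mean scaling 1 was called higher and 3 lower, where 48 and 51 of all 433 tested entries were. The list median was then 0.02. In the deposited TPM the higher count was 3 without AA2P replicate 3 or control replicate 1 (74 and 68 over all entries). It was 2 without control replicate 2 or 3 (62 and 54 over all entries). With no filter or with the replicate number as a block it was also 2 (48 and 52 over all entries). With known miRNAs only it was 9 (94 of the 264 entries). The lower count was 1 without control replicate 2 or with the replicate block (13 and 11 over all entries). It was 0 without AA2P replicate 1, control replicate 1 or control replicate 3 (17, 14 and 8 over all entries), and 0 with no filter (9 over all entries). Of 10 tested miRNAs known to promote the cell cycle, 3 were called lower, miR-21-5p, miR-221-3p and miR-222 (limma), and 0 higher. Over all tested entries 4.85% were called lower and 19.9% higher. Both miR-221-3p and miR-222 repress the CDK inhibitor CDKN1B. The list had a median of 0.09, against 0.25 over all tested entries. The list median was -0.19 after trimmed-mean scaling, 0.05 without AA2P replicate 1, -0.03 without control replicate 2 and 0.21 without control replicate 3.

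Markers of other cell types were present at low to moderate levels. The sum of the white cell miRNAs was higher in the AA2P libraries, but it rested on entries of at most 5.40 TPM, of which 1 of 4 was tested. The 3 red cell miRNAs summed to 2.23 to 3.98 TPM in AA2P and 3.97 to 4.72 TPM in control libraries, with miR-144 at 0 in 4 of 6 libraries. The 4 white cell miRNAs summed to 2.25 to 10.3 TPM in AA2P and 0.860 to 1.18 TPM in control libraries. Of the 4, miR-142-3p was the 1 tested and was called higher (log2 fold change 0.96, limma adjusted p = 0.0293). It stood at 1.47 to 2.68 TPM in AA2P and 0.43 to 0.59 TPM in control libraries. Thus it passed the filter only through the group where it is high, and its call is no support for a difference. The call was lost without any 1 library other than AA2P replicate 2 (limma adjusted p = 0.0718 to 0.0845), with totals without miR-21-5p (0.0644) and under quantile normalization (0.0647). In these settings the log2 fold change stayed at 0.80 to 1.00. The call was also lost with the replicate number as a block, and with no filter on low values, where 0 of 4 were called. In the same list miR-223 stood at 5.40, 0.06 and 0 TPM in AA2P replicates 1 to 3 and at most at 0.04 TPM in control libraries. AA2P replicate 1 was also the library in which miR-15a, miR-15b, miR-16 and miR-195 were highest, and a link to miR-223 was not tested. The 6 muscle and myoid miRNAs summed to 219 to 307 TPM in AA2P and 168 to 227 TPM in control libraries, mostly miR-1 at 225 ± 41.4 TPM in AA2P and 153 ± 24.1 TPM in control libraries (limma adjusted p = 0.0746), and 0 of 4 tested were called. The 3 mesenchymal miRNAs in the table summed to 1.64 to 1.94 TPM in AA2P and 1.46 to 2.34 TPM in control libraries. The 2 endothelial miRNAs summed to 86.8 to 111 TPM in AA2P and 98.4 to 112 TPM in control libraries. In the deposited TPM neither these nor miR-486, the 1 red cell entry tested, were called. Under trimmed-mean, median-of-ratios and quantile scaling, miR-486 and 1 of the 2 endothelial entries were called lower. Over all 433 entries, 51, 50 and 40 were called lower there. With known miRNAs only, miR-486 was called lower, as were 19 of the 264 entries. In that fit 1 of 4 muscle and myoid and 1 of 2 gonadal somatic entries were called higher, as were 94 of the 264. Each list also had 1 entry called higher among entries with a mean of at least 10 TPM (78 of 255 overall entries). The same held without AA2P replicate 3 (74 of 433). In the main test the gonadal miR-140-5p had a log2 fold change of 0.42 (limma adjusted p = 0.0577). The part of any of these cells in the members' levels was not tested.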

How the data were processed

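Small RNA libraries of 3 AA2P and 3 control samples were sequenced in 1 lane. Their TPM were deposited by the authors in 1 table, rounded to 2 decimals, with 1 column per library. The submitters' processing notes name Bowtie without saying what it did or in which version. Not given in the sources used here are the genome build, the miRNA database release and how reads matching several copies were counted. The entries miR-9, miR-9-1 and miR-9-2 carry the same values in every library (means of 4011 TPM in AA2P and 2654 TPM in control libraries). Reads matching several entries may thus have been counted in full for each. Whether near-identical members share reads in this way was not tested, so single members and their sum are both less certain.

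Depth was estimated from the step of values under 1 TPM, of which 98.2 to 100.0% were whole reads to a tolerance of 0.0051 TPM; 3 reads, the limit that a 0 allows, are 0.0834 to 0.116 TPM (counting error only, since reads are not independent molecules). No count test was run. Values were tested as log2(TPM + 1), which understates the change of low entries, by limma 3.58.1 (R 4.3.3) with a mean-variance trend, two-sided, over entries reaching 1 TPM in 3 or more libraries, after checks on simulated data. Ratios within libraries used exact permutation tests (scipy 1.17.1). All members were named, with the 3 closest profiles for each, up to 3 of the most abundant entries per list, and miR-424-5p and miR-503. The likeness of the seeds of miR-424-5p and miR-503 to that of the members is background knowledge. It was not checked by sequence and need not be a full match. Members, lists and tests were chosen with earlier results of these data known. Lists were described by counts and medians, with no list test. The replicate number was no block in the test but in an alternative.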

Additional observations from a re-analysis of the deposited data

How the results depend on the processing

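The count of all calls, 107, was 57 with no filter on low values (48 higher, 9 lower), 63 with the replicate number as a block (52 and 11), and 62 to 98 when 1 library was left out, lowest without control replicate 3 (54 and 8). With 5 other scalings it was 82 to 99. Members called were 0 under 18 of 19 alternatives, the replicate block and each left-out library included, and 2 with known miRNAs only, where miR-16 (0.35) and miR-15b (0.32) passed among 113 calls of 264 entries (94 higher, 19 lower). Without 1 library the log2 fold change was 0.23 to 0.43 for miR-16, 0.22 to 0.39 for miR-15b, 0.15 to 0.41 for miR-15a, 0.17 to 0.41 for miR-195 and -0.23 to 0.061 for miR-497. Quantile normalization put miR-16 at -0.044 and miR-195 at -0.021. The log2 difference of the summed TPM of the 5 members, 0.34 as deposited, was 0.059 with trimmed-mean scaling, 0.068 with median-of-ratios scaling, 0.044 with totals without miR-21-5p, 0.14 with totals without the 10 most abundant entries, and 0.23 to 0.42 without 1 library. Without 1 library the differences in log2 ratio were -0.096 to 0.0033 for miR-15a to miR-16, -0.084 to 0.014 for miR-15b to miR-16, -0.083 to 0.061 for miR-15a to miR-15b (-0.0059 as a ratio of TPM + 1), -0.094 to 0.030 for miR-195 to miR-16 and -0.49 to -0.25 for miR-497 to miR-195. In the replicate block the mean difference of miR-497 to miR-195 is -0.41 by construction, so only the p-value could change (exact sign-flip p = 0.25, the smallest possible). Apart from the scalings, which remove a shift shared by most entries, the cause of these changes was not tested. Deviations from the group means correlated at 0.29, 0.06 and 0.18 between libraries of the same number, not all above 0.1, and 5 of 6 libraries correlated best with their own number, a hint from the data and not from the design. At the depth of miR-497 the counting SE of its log2 ratio to miR-195, 0.0945 to 0.106, was below the SD between libraries, 0.155 in AA2P and 0.263 in control libraries.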
